A study of Mus musculus with 16 samples.

Results

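Cd5 and Cd6 encode a pair of related lymphocyte surface receptors. They were taken as the 2 rows of the deposited mouse count table that carry these gene names, out of 24421 genes in the table and 13554 that had enough counts to be tested. RNA sequencing had been done on naive T cells from lymph nodes of C57BL/6 mice, sorted by flow cytometry, with 16 libraries in 4 groups of 4 biological replicates. All cells lacked surface CD25, carried much CD62L and little CD44, and were either CD4+ or CD8+. Within each lineage, the third of cells with the lowest surface CD5 formed the CD5lo group and the third with the highest formed the CD5hi group, which gave the groups CD4 CD5lo and CD4 CD5hi, CD8 CD5lo and CD8 CD5hi. The cut was set within a lineage, so CD5hi in CD4 cells and CD5hi in CD8 cells need not mean the same amount of CD5 protein. The labels give no genetic change or treatment for any group, and no age. They do not say whether cells of several mice were pooled, so p-values measure the spread between these libraries.

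CD5 and CD6 belong to the scavenger receptor cysteine-rich (SRCR) family, named after a disulphide-rich domain that both carry outside the cell. CD5 sits near the T cell receptor and restrains its signalling through a long cytoplasmic tail, and its surface level on a naive T cell rises with the strength of the cell's signals from self peptides. CD6 binds ALCAM (CD166) and CDCP1 (CD318) on other cells, and its tail recruits adaptor proteins of T cell receptor signalling. Because the cells were sorted on CD5 protein, the Cd5 RNA values check the sort. Cd6 was not among the markers used for sorting.

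In the annotation of the mouse assembly GRCm38 (GENCODE vM21), both genes lie on the minus strand of chromosome 19. Cd5 (ENSMUSG00000024669.8) spans 10717116 to 10739002 and Cd6 (ENSMUSG00000024670.17) spans 10789341 to 10830058, leaving 50338 bp between them. That interval holds 1 annotated gene that was tested, A430093F15Rik (ENSMUSG00000067577.8), on the plus strand from 10740947 to 10786043. It is annotated as a processed transcript, a class of RNA with no annotated reading frame. Its start is 1945 bp from the start of Cd5, and the pair of genes point away from each other. Its far end is 3297 bp from the end of Cd6. None of the exonic bases of these 3 genes overlapped another gene's exons (0 bases for each), and no run of 31 bases was shared between their annotated transcripts on either strand (0 shared runs for each pair).

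The 250 bases before the RefSeq start of Cd5 and of A430093F15Rik are shown because the pair of start sites is divergent and both genes moved with CD5 in the results that follow. RefSeq promoter sequences were found for 2 of the 3 genes. Both are given 5′ to 3′ on the gene's own strand, from GRCm38.p6, at chr19:10738975-10739224 (minus strand) for Cd5 and chr19:10740697-10740946 (plus strand) for A430093F15Rik. Capitals mark matches on either strand to the E-box CANNTG, the site class of E proteins, and to the core GGAA of the ETS family.
Cd5: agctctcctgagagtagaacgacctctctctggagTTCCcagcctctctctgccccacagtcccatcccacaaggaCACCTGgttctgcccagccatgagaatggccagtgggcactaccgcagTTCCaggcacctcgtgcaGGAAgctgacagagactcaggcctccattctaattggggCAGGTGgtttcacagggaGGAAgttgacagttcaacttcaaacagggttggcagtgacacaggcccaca
A430093F15Rik: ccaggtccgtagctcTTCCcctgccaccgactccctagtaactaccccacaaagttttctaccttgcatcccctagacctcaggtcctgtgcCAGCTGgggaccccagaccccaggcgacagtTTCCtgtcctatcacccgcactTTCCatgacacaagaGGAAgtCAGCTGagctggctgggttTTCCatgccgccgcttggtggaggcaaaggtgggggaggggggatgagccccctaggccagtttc
Each window held 2 E-box matches, a number reached or passed by 31.7% of 32536 RefSeq promoters of the same length. The Cd5 window held 4 ETS cores, a number reached or passed by 33.5% of promoters, and the A430093F15Rik window held 5, reached or passed by 18.1%. At least 1 E-box was found in 66.2% of promoters and at least 1 ETS core in 93.4%. The RUNX core TGTGGT had 0 matches in either window, and 14.0% of promoters held it. No motif matches overlapped, and a match is a description of letters only.

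Libraries held 71447252 to 93418385 counts (median 78528233). Cd4 RNA was at 971 CPM (counts per 1000000 counts of the library, after TMM scaling) or more in every CD4 library and Cd8a at 1563 CPM or more in every CD8 library, as labelled. Replicate 3 of CD4 CD5lo, replicate 4 of CD8 CD5hi and replicate 3 of CD8 CD5lo stood apart by B cell markers. In these 3 libraries the summed CPM of 14 B cell markers was 385, 985 and 606, and these were the highest libraries of their groups, against group medians of 22.7 to 62.6. In the 2 of them from CD8 cells Cd4 RNA was at 62.2 CPM (CD5hi) and 27.2 CPM (CD5lo). Results on the pair are also given without these libraries.

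Cd5 RNA separated all 4 groups. In CD4 CD5lo cells it was at 276, 237, 267 and 239 CPM in replicates 1 to 4 (mean 255 ± 19.5 SD, n = 4). In CD4 CD5hi cells it was at 1427, 1349, 1368 and 1399 CPM (mean 1386 ± 34.4 SD, n = 4). The lowest CD5hi library was thus far above the highest CD5lo library. In CD8 CD5lo cells Cd5 was at 196, 203, 216 and 187 CPM (mean 200.4 ± 12.3 SD, n = 4). In CD8 CD5hi cells it was at 469, 552, 477 and 493 CPM (mean 498 ± 37.8 SD, n = 4). The levels of no 2 groups overlapped, and the order was CD4 CD5hi, CD8 CD5hi, CD4 CD5lo, CD8 CD5lo. The counts behind these values were 14842 at the lowest and 113863 at the highest. By mean CPM, which is not corrected for gene length, Cd5 ranked 69th of the tested genes in CD4 CD5hi cells and 993rd in CD8 CD5lo cells.

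Cd6 followed the same order without having been sorted on. It was at 368, 328, 393 and 343 CPM in CD4 CD5lo cells (mean 358 ± 28.5 SD, n = 4). In CD4 CD5hi cells it was at 1497, 1350, 1462 and 1438 CPM (mean 1437 ± 62.7 SD, n = 4). These 2 groups did not overlap. In CD8 CD5lo cells Cd6 was at 328, 349, 365 and 324 CPM (mean 342 ± 19.1 SD, n = 4). In CD8 CD5hi cells it was at 757, 807, 719 and 709.7 CPM (mean 748 ± 44.3 SD, n = 4). The 2 CD5lo groups overlapped for Cd6, while CD8 CD5hi lay above both and CD4 CD5hi above all. The spread between replicates was small for both genes, with coefficients of variation of 2.49% to 7.96% over the 4 groups.

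**Figure D1:**
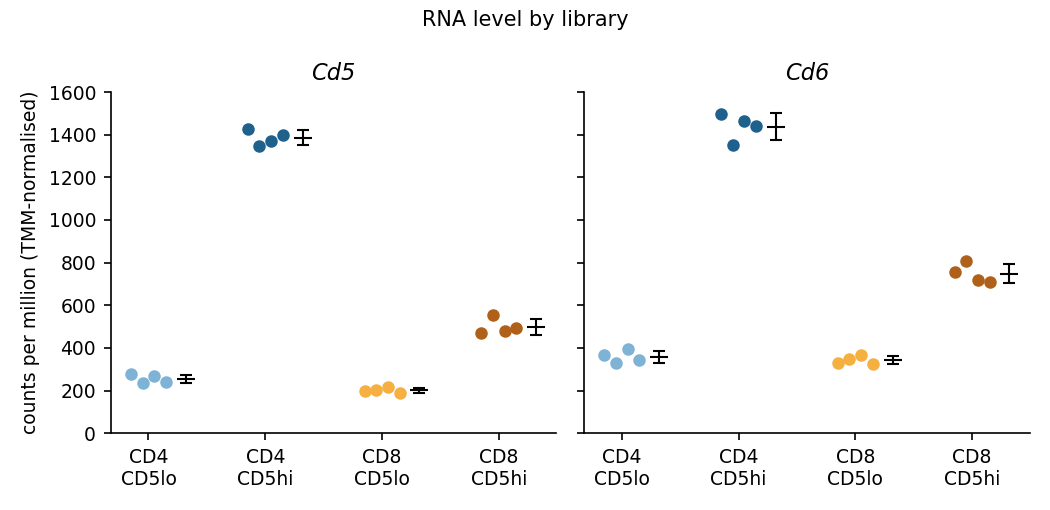
RNA level of Cd5 (left) and Cd6 (right) in CPM, with 1 point per library and the group mean ± SD (n = 4) beside the points. For both genes the 4 CD4 CD5hi libraries sit between 1349 and 1497 CPM, above every other library, and CD8 CD5hi libraries sit between CD4 CD5hi and the CD5lo groups.

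High CD5 in CD4 cells went with more RNA of both receptors. Cd5 rose by 2.44 ± 0.07 (log2 ± SE; 5.44-fold, adjusted p = 3.33e-12) and Cd6 by 2.01 ± 0.07 (4.01-fold, adjusted p = 2.63e-11) in edgeR's quasi-likelihood test with Benjamini-Hochberg adjustment over all tested genes. Both members were thus called higher at an adjusted p under 0.05, where 4.08% of all genes were called in either direction and 2.68% were called higher. By p-value they ranked 2nd and 3rd of 13554, and by size of rise 53rd and 80th. The median log2 change of all tested genes was -0.01. The groups also differed in regulatory T cell markers: Foxp3, the defining factor of these cells, was at 3.98 to 5.96 CPM in CD4 CD5lo and 14.4 to 22.1 CPM in CD4 CD5hi libraries, and the summed level of 12 such markers was 152 to 189 against 435 to 524 CPM. Of the 12, 7 were called higher and 0 lower, with a median log2 change of 1.58. The part of regulatory T cells in the Cd5 and Cd6 differences was not tested. In bulk RNA more cells of a type and more RNA per cell cannot be told apart.

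In CD8 cells the same pair rose, by less. Cd5 rose by 1.31 ± 0.07 (2.48-fold, edgeR adjusted p = 2.61e-08) and Cd6 by 1.13 ± 0.07 (2.19-fold, adjusted p = 1.09e-07). Here 9.46% of genes were called in either direction and 5.95% were called higher. The pair again ranked 2nd and 3rd by p-value, and 287th and 374th by size of rise. Markers of other cell states moved with this comparison too. Of the 12 regulatory T cell markers 4 were called higher and 0 lower (median log2 change 0.71): Ikzf2, which encodes the factor Helios, from 15.1 to 42.6 CPM (edgeR adjusted p = 0.00534), Gpr83 at 0.80 ± 0.14 (adjusted p = 0.00229), and Izumo1r and Tnfrsf9, whose values follow. The summed level of all 12 was 484 to 655 CPM in CD8 CD5lo and 439 to 533 CPM in CD8 CD5hi libraries, most of it from the integrin gene Itgae (means of 439 and 267 CPM; -0.72 ± 0.29, adjusted p = 0.143), and Foxp3 was at 8.31 CPM or less in both groups. Cd44, a gate gene, was at 2.70 to 7.35 CPM in CD8 CD5lo and 7.61 to 20.5 CPM in CD8 CD5hi libraries (1.33 ± 0.36, adjusted p = 0.0268), a call lost without CD8 CD5lo replicate 1 or 4 or CD8 CD5hi replicate 1 or 2 (highest adjusted p = 0.103). Of 5 tested natural killer markers 2 were called higher and 0 lower: Eomes, a T-box factor, went from 43.2 to 114.7 CPM (1.41 ± 0.21, adjusted p = 0.000601) and Klrb1c, the NK1.1 receptor gene, from 1.14 to 4.12 CPM (1.86 ± 0.40, adjusted p = 0.00766). The 3 that did not pass included Prf1, from 79.7 to 61.7 CPM (-0.37 ± 0.18, adjusted p = 0.246), and Gzma, from 2.91 to 2.02 CPM (-0.52 ± 0.38, adjusted p = 0.455). The median log2 change of the 5 was 0.23. The summed level of the 7 listed natural killer markers was 181 to 273 CPM at low and 223 to 401 CPM at high CD5. The part of such cells in the Cd5 and Cd6 differences was not tested.

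The gap between CD5hi and CD5lo was narrower in CD8 than in CD4 cells for both genes when that difference itself was tested. It was smaller by -1.13 ± 0.10 for Cd5 (log2 ± SE, edgeR adjusted p = 3.10e-05) and by -0.87 ± 0.10 for Cd6 (adjusted p = 0.000388). Of all tested genes, 0.31% were called for this difference, 0.133% in the same direction as the pair. Cd5 ranked 2nd and Cd6 4th by p-value. Over 23 alternative analyses of this difference, Cd5 stayed between -1.18 and -1.09 and Cd6 between -0.91 and -0.83. The highest adjusted p-values among these were 0.00132 and 0.00261.

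Between the lineages at low CD5, Cd5 passed the test and Cd6 did not. Among CD5lo cells, Cd5 was lower in CD8 than in CD4 cells by -0.35 ± 0.07 (log2 ± SE, edgeR adjusted p = 0.00166), a comparison in which 19.5% of genes were called and 9.44% were called lower. Cd6 differed by -0.07 ± 0.07 (adjusted p = 0.593), with a 95% interval of -0.22 to 0.08, and its groups overlapped. Among CD5hi cells, Cd5 was lower in CD8 cells by -1.48 ± 0.07 (2.78-fold, adjusted p = 3.14e-10) and Cd6 by -0.94 ± 0.07 (1.92-fold, adjusted p = 3.53e-08), where 30.3% of genes were called and 14.8% were called lower. CD8 CD5hi cells, next in the order of levels, still had more of both RNAs than CD4 CD5lo cells, by 0.97 ± 0.07 for Cd5 (adjusted p = 2.94e-08) and 1.06 ± 0.07 for Cd6 (adjusted p = 8.02e-09). In that comparison 33.5% of genes were called and 17.6% were called higher. The only neighbours in the order that did not pass the test were the 2 CD5lo groups for Cd6.

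These values hardly moved with the 3 marker-rich libraries left out. The rise in CD4 cells was then 2.47 for Cd5 and 2.05 for Cd6, the rise in CD8 cells 1.37 and 1.20, and the difference between lineages -1.10 and -0.85. All 6 stayed past the threshold.

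The ratio of Cd6 to Cd5 RNA differed between the groups in every unpaired comparison made. The number of Cd6 counts per Cd5 count, taken within each library, was 1.33, 1.38, 1.47 and 1.43 in CD4 CD5lo libraries (mean 1.41 ± 0.0613 SD, n = 4). In CD4 CD5hi libraries it was 1.05, 1.00, 1.07 and 1.03 (mean 1.04 ± 0.0291 SD, n = 4). So the ratio was lower where CD5 was high, in every CD4 library. The cells were sorted on the product of Cd5 and not on that of Cd6. Comparisons of the ratio between CD5hi and CD5lo are therefore not independent of the sort. The part of the sort in them was not tested. In CD8 CD5lo libraries it was 1.67, 1.72, 1.69 and 1.74 (mean 1.71 ± 0.0309 SD, n = 4). In CD8 CD5hi libraries it was 1.62, 1.46, 1.51 and 1.44 (mean 1.51 ± 0.0787 SD, n = 4). CD8 cells carried more Cd6 per Cd5 than CD4 cells at either CD5 level, and the 2 groups overlapped in none of the 4 comparisons made. The mean log2 ratio fell by 0.44 from CD5lo to CD5hi in CD4 cells and by 0.18 in CD8 cells, and was 0.28 higher in CD8 than CD4 cells at low CD5 and 0.54 higher at high CD5. Each comparison gave p = 0.0286 in a two-sided exact permutation test of 4 against 4 libraries, the smallest p this design allows, and 0.0286 after adjustment over the 4. With libraries paired by replicate number, sign flips of the 4 pairs gave an exact permutation p of 0.125 for each. That is the smallest p that sign flips of 4 pairs allow, so this test could not pass the threshold. No other paired test of the ratio was run.

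**Figure D2:**
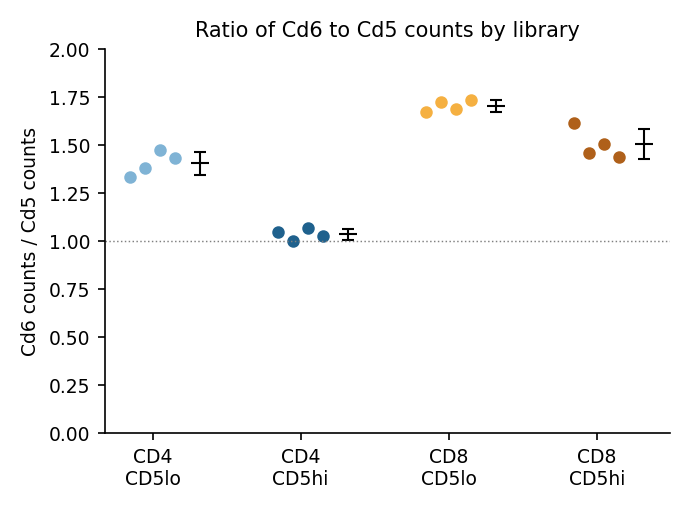
Cd6 counts divided by Cd5 counts in each library (points), with the group mean ± SD (n = 4) beside them; the dotted line marks equal counts. CD4 CD5hi libraries sit at 1.00 to 1.07, CD4 CD5lo at 1.33 to 1.47, CD8 CD5hi at 1.44 to 1.62 and CD8 CD5lo at 1.67 to 1.74.

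The Cd6 transcripts cover 7968 exonic bp and those of Cd5 cover 4928, so counts overstate Cd6. Per kilobase of exon, Cd5 was at 281 CPM in CD4 CD5hi cells, 101.0 in CD8 CD5hi, 51.7 in CD4 CD5lo and 40.7 in CD8 CD5lo. Cd6 was at 180.3, 93.9, 44.9 and 42.9 CPM per kilobase in the same order. On this scale the ratio of Cd6 to Cd5 was 0.641 ± 0.0180 (SD, n = 4) in CD4 CD5hi cells, 0.869 ± 0.0379 in CD4 CD5lo, 0.931 ± 0.0487 in CD8 CD5hi and 1.05 ± 0.0191 in CD8 CD5lo. The direction of a per-length ratio depends on which transcripts the cells use, which these gene counts do not show. The comparisons of the ratio between groups do not change with the exonic lengths used here, which are the same for every group. A difference between groups in the transcripts used could also change the ratio, and was not tested.

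The gene between the pair gave the smallest p-value of all tested genes in both CD5 comparisons. A430093F15Rik was chosen after its values were seen. It was at 4.69, 5.64, 5.19 and 4.87 CPM in CD4 CD5lo libraries and at 92.4, 83.2, 87.9 and 85.0 CPM in CD4 CD5hi libraries. In CD8 CD5lo libraries it was at 8.10, 7.38, 8.87 and 5.75 CPM, and in CD8 CD5hi libraries at 43.5, 48.0, 46.2 and 39.7 CPM. The 4 groups did not overlap, and their order at high CD5 was that of Cd5 and Cd6. A430093F15Rik rose by 4.10 ± 0.12 in CD4 cells (log2 ± SE; 17.1-fold, edgeR adjusted p = 3.33e-12) and by 2.56 ± 0.11 in CD8 cells (5.90-fold, adjusted p = 2.98e-09). The difference between lineages, CD8 minus CD4, was -1.53 ± 0.15 (adjusted p = 0.000157), ranked 3rd by p-value, after Cd5 and ahead of Cd6. At low CD5 it was higher in CD8 than in CD4 cells, by 0.56 ± 0.11 (adjusted p = 0.00156), where Cd5 was lower. At high CD5 it was lower in CD8 cells by -0.97 ± 0.11 (adjusted p = 3.59e-06).

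A430093F15Rik remained a far less abundant RNA than its neighbours per exonic length. It had 27.9 CPM per kilobase in CD4 CD5hi, 14.2 in CD8 CD5hi, 2.41 in CD8 CD5lo and 1.63 in CD4 CD5lo cells, over 3119 exonic bp. No source used here says whether the counting used strand, so reads counted for A430093F15Rik cannot be assigned to its own strand or to the opposite strand that carries Cd5 and Cd6.

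**Figure D3:**
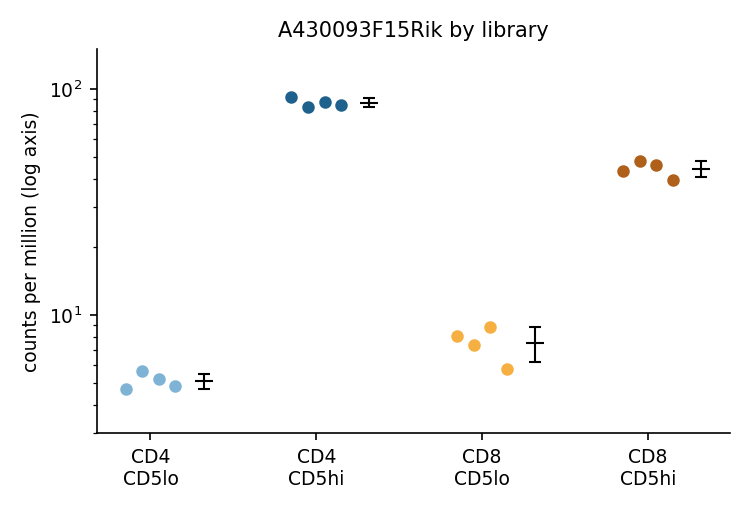
A430093F15Rik in CPM (log axis), with 1 point per library and the group mean ± SD (n = 4) beside the points. CD5lo libraries sit between 4.69 and 8.87 CPM, CD8 CD5hi libraries between 39.7 and 48.0 and CD4 CD5hi libraries between 83.2 and 92.4.

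Of the genes on either side of these 3, edgeR called 0 of 8 in either CD5 comparison, where 1 of 8 had an unadjusted p under 0.05 in each. Over all genes 4.08% (CD4) and 9.46% (CD8) were called, so a count of 0 among 8 is near the share over all genes. DESeq2 and limma voom also called 0, and the replicate block called 1 in each. The 4 tested genes on each side were Tkfc, Ddb1, Vwce and Vps37c beyond Cd5, and Slc15a3, Tmem132a, Tmem109 and Prpf19 beyond Cd6. Prpf19, a splicing factor, changed by -0.02 ± 0.05 in CD4 and 0.06 ± 0.05 in CD8 cells on the log2 scale. Over the 8 neighbours the log2 change ran from -0.97 to 0.29 in CD4 cells, with a lowest edgeR adjusted p of 0.243, and from -1.20 to 0.46 in CD8 cells, with a lowest adjusted p of 0.213. The lowest of each range was Vwce.

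**Figure D4:**
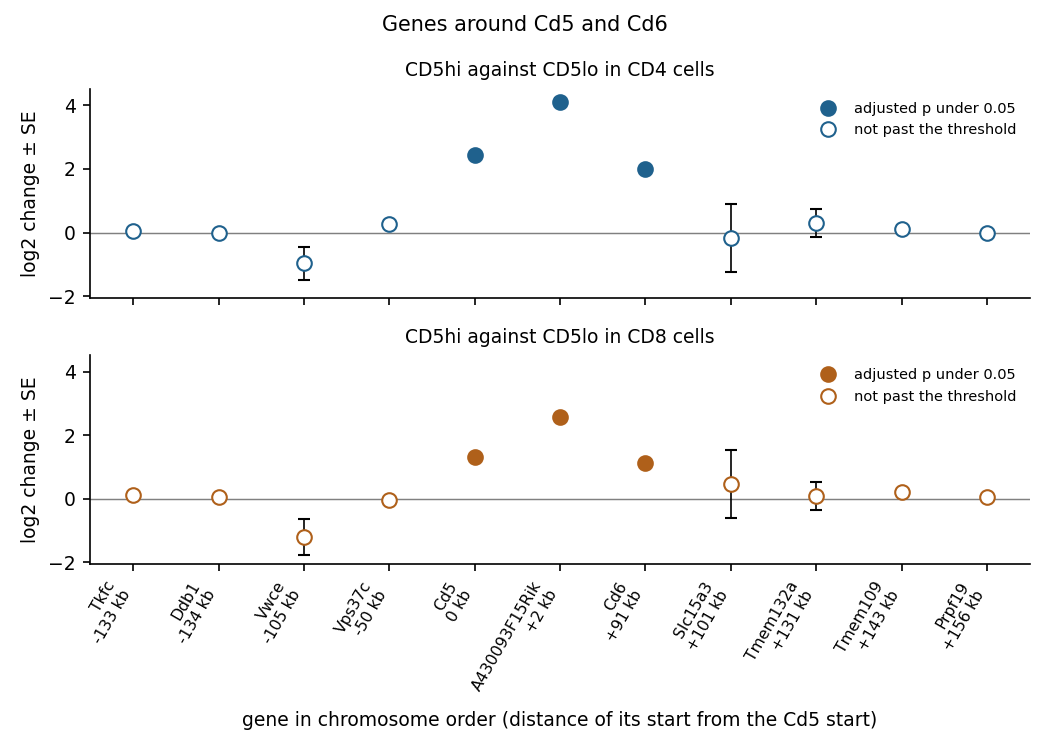
Log2 change ± SE, CD5hi against CD5lo, for Cd5, A430093F15Rik, Cd6 and the 4 tested genes on each side, in chromosome order, in CD4 cells (upper) and CD8 cells (lower). Filled points passed the adjusted threshold: Cd5, A430093F15Rik and Cd6 in both panels.

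Over the 16 libraries, the gene with the profile most like that of Cd5 was Cd6, and the gene most like Cd6 was Cd5. Likeness was the root mean square difference between log2 CPM profiles, each centred on its own mean, over 9025 genes with a mean of at least 5 CPM. This is a description, and the libraries that set it also gave the comparisons. Cd5 and Cd6 differed by 0.268, against a median difference from Cd5 of 1.10 over all genes. Next to Cd5 came Izumo1r, which encodes folate receptor 4 (0.271), and Cd200, a surface ligand of an inhibitory receptor (0.309). Jup, the junction protein plakoglobin (0.374), Phactr2 (0.394) and Ptgfrn (0.450) completed the 6 nearest. Next to Cd6 came Jup (0.334), Chchd10, a mitochondrial protein (0.339), and Ubash3b, the phosphatase STS-1 that acts on T cell receptor signalling (0.342). Klhdc2, a substrate adaptor of a ubiquitin ligase (0.344), and Cd101, an immunoglobulin family receptor (0.345), were the last of its 6, against a median from Cd6 of 0.877.

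These like genes were far apart in level and differed in how lineage entered. Izumo1r went from 48.7 to 262 CPM with CD5 in CD4 cells, a rise of 2.43 ± 0.15 (log2 ± SE, edgeR adjusted p = 6.08e-08), and from 32.6 to 65.6 CPM in CD8 cells, a rise of 1.01 ± 0.14 (adjusted p = 0.000339). Its difference between lineages was -1.42 ± 0.20 (adjusted p = 0.00662). Ubash3b went from 21.5 to 53.5 CPM in CD4 cells and from 20.8 to 44.2 CPM in CD8 cells, rises of 1.31 ± 0.13 and 1.09 ± 0.13 (adjusted p = 1.38e-05 and 9.91e-05), and its difference between lineages was -0.22 ± 0.19 (adjusted p = 0.948). Ptgfrn rose by 1.46 ± 0.20 in CD4 and 1.77 ± 0.20 in CD8 cells (adjusted p = 0.000252 and 7.26e-05). Of the 9 like genes outside the pair, Izumo1r passed the test of the difference between lineages and the other 8 did not.

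**Figure D5:**
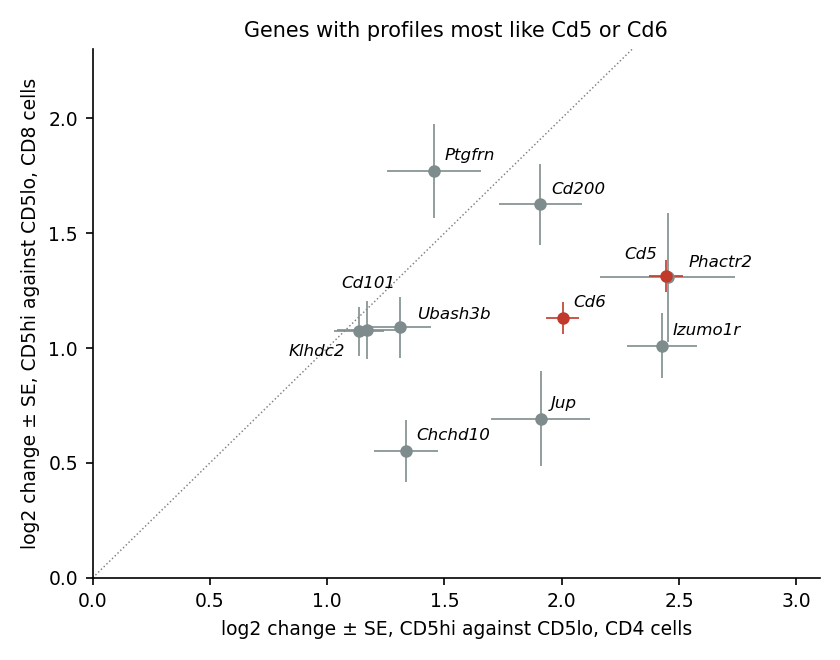
Log2 change ± SE with high CD5 in CD4 cells (x axis) and CD8 cells (y axis) for Cd5 and Cd6 (red) and the genes with the most similar profiles (grey); the dotted line marks equal changes. Cd5, Cd6, Izumo1r, Phactr2, Jup and Chchd10 lie well below the line, Klhdc2, Cd101 and Ubash3b near it and Ptgfrn above it.

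The rest of the SRCR family was mostly scarce in these cells. Of 27 listed SRCR genes 25 were in the table and 17 were tested. Outside the pair, Lgals3bp, a secreted glycoprotein, had the highest level, with group means of 124.5 to 221.5 CPM, and the others tested had means of at most 12.3 CPM. In CD4 cells 2 of the 17 tested SRCR genes were higher with high CD5, beside 2.68% of all genes. They were Cd5 and Cd6. The cells were sorted on the product of Cd5, so its call is not independent of the sort. The 3 that were lower, where 1.4% of all genes were called lower, were Dmbt1, Cd163 and Prss12. Dmbt1, a mucosal scavenger protein, went from 8.25 ± 0.667 to 3.68 ± 0.847 CPM (SD, n = 4), a fall of -1.17 ± 0.17 (log2 ± SE, edgeR adjusted p = 0.000427). In CD8 cells Dmbt1 went from 8.14 ± 1.06 to 2.59 ± 0.465 CPM, a fall of -1.65 ± 0.17 (adjusted p = 2.98e-05). It was the 1 member called lower, beside 3.51% of all genes. Cd5 and Cd6 were again the 2 members called higher, beside 5.95% of all genes (3 members without CD8 CD5lo replicate 3). The median log2 change of the 17 was -0.03 in CD4 and -0.25 in CD8 cells, beside -0.01 and -0.00 over all genes. The call of Cd163, a macrophage haemoglobin receptor, did not hold with CD4 CD5hi replicate 2 left out (adjusted p = 0.0514), and that of Prss12, a protease, without any 1 of 5 libraries (CD4 CD5lo replicates 1 and 4, CD4 CD5hi replicates 1, 2 and 3; highest adjusted p = 0.0972). In CD8 cells 1 to 3 members were lower over the libraries left out, with 3 without CD8 CD5hi replicate 4, and 4 were lower with a replicate block.

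Among the genes for ligands, 1 passed the test with high CD5. Alcam, a CD6 ligand, had group means of 0.180 CPM at low and 0.529 CPM at high CD5 in CD4 cells, and of 0.366 and 1.28 CPM in CD8 cells. Its change was 1.55 ± 0.57 in CD4 cells (adjusted p = 0.211) and 1.81 ± 0.55 in CD8 cells (edgeR adjusted p = 0.0492). The CD8 call was lost without any 1 of 6 of the 8 CD8 libraries, all but CD8 CD5lo replicate 3 and CD8 CD5hi replicate 3, with adjusted p up to 0.144. Cdcp1, the other CD6 ligand, was at 0.467 CPM in CD4 CD5lo and 2.15 CPM in CD4 CD5hi cells, a change of 2.20 ± 0.62 that did not pass (adjusted p = 0.0645), and at 0.0337 and 0.0338 CPM in the CD8 groups. Of 5 tested ligands, edgeR called 0 in CD4 cells, where 2 had an unadjusted p under 0.05 and DESeq2, limma voom and the replicate block each called 1, and edgeR called 1 in CD8 cells, Alcam (2 without CD8 CD5lo replicate 3). Over all genes edgeR called 4.08% in CD4 and 9.46% in CD8 cells. The medians were 0.02 and 0.48.

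Of 22 genes of cytoplasmic partners of the tails, 3 were higher and 1 lower with high CD5 in CD4 cells, and 2 were higher and 2 lower in CD8 cells. Over all genes, 2.68% were called higher and 1.4% lower in CD4 cells, and 5.95% and 3.51% in CD8 cells, so the CD8 counts are near the shares over all genes. The median log2 change was 0.07 and 0.02. Ubash3b was higher in both, with the values above. Grap2, the adaptor GADS, was lower in both: it went from 1040 ± 54.0 to 698 ± 61.2 CPM in CD4 cells (SD, n = 4; -0.58 ± 0.09, adjusted p = 0.000874) and from 1222 ± 64.6 to 842 ± 112 CPM in CD8 cells (-0.54 ± 0.09, adjusted p = 0.00136). Ptpn6, the phosphatase SHP-1, went from 442 to 636 CPM in CD8 cells (0.53 ± 0.12, adjusted p = 0.0115). Its change in CD4 cells, 0.49 ± 0.12 (adjusted p = 0.0299), was lost without any 1 of 5 libraries (CD4 CD5lo replicates 2, 3 and 4, CD4 CD5hi replicates 1 and 4; highest adjusted p = 0.113). Fyn, a kinase, was also higher in CD4 cells at 0.21 ± 0.05 (adjusted p = 0.0387), a call that held without CD4 CD5lo replicate 1 and was lost without any other 1 of the 8 CD4 libraries (highest adjusted p = 0.114). With the 3 marker-rich libraries left out, 1 was higher and 1 lower in CD4 cells, and 3 were higher and 1 lower in CD8 cells. With a replicate block the counts were 4 higher and 3 lower in CD4 cells, and 4 and 5 in CD8 cells.

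Errors differed among the partners that did not pass in either lineage. Rasa1, a Ras GTPase-activating protein chosen after its values were seen, changed by 0.22 ± 0.22 in CD4 and 0.13 ± 0.22 in CD8 cells, and the adaptor gene Sh2d2a by -0.08 ± 0.12 and 0.09 ± 0.12. Csnk2b, the regulatory subunit of casein kinase 2, changed by 0.07 ± 0.07 and 0.13 ± 0.07 in CD4 and CD8 cells, and Cblb, a ubiquitin ligase, by 0.28 ± 0.08 and 0.18 ± 0.08. Ubash3a, the paralogue of Ubash3b, changed by 0.07 ± 0.05 and -0.05 ± 0.05, and Lcp2, the adaptor SLP-76 that CD6 recruits, by 0.01 ± 0.06 and -0.15 ± 0.06. The adjusted p-values of these 6 genes ran from 0.0744 to 0.991.

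A list of 10 genes held factors with sites known from T cell gene promoters and proteins that act with or against such factors. Of these 10, 2 were higher with CD5 in CD4 cells (Ets1 and Id2, median of the list 0.16). In CD8 cells 1 was higher (Id3) and 1 lower (Runx1), with a median of 0.06. Over all genes, 2.68% were called higher in CD4 cells, and 5.95% were called higher and 3.51% lower in CD8 cells. Ets1, an ETS factor, went from 1806 ± 109 to 2172 ± 134 CPM in CD4 cells (SD, n = 4), a log2 change of 0.27 ± 0.07 (edgeR adjusted p = 0.0356). That call was lost without any 1 of 6 libraries (CD4 CD5lo replicates 1, 2 and 3, CD4 CD5hi replicates 2, 3 and 4; highest adjusted p = 0.115). Id2, an inhibitor of E proteins, was lost without CD4 CD5lo replicate 4 or CD4 CD5hi replicate 1 or 4 (highest adjusted p = 0.0777), and Id3, a related inhibitor, without any 1 of 5 CD8 libraries (CD8 CD5lo replicates 2, 3 and 4, CD8 CD5hi replicates 1 and 2; highest adjusted p = 0.129). Runx1 in CD8 cells, at -0.43 ± 0.10 (adjusted p = 0.012), was lost without CD8 CD5lo replicate 2 (adjusted p = 0.0537). The calls of Ets1, Id2 and Id3 were also lost with the 3 marker-rich libraries left out. With a replicate block 3 were higher in CD4 and 2 in CD8 cells. Tcf3, which encodes E2A, changed by 0.14 ± 0.09 and 0.02 ± 0.09 (adjusted p = 0.646 and 0.945).

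Between lineages, 3 of these 10 genes were higher and 2 lower in CD8 than CD4 cells at low CD5. At high CD5, 2 were higher and 2 lower. Over all genes, 10% were called higher and 9.44% lower at low CD5, and 15.6% and 14.8% at high CD5. Runx1 was lower in CD8 than CD4 cells by -1.22 ± 0.10 at low CD5 and by -1.55 ± 0.10 at high CD5 (edgeR adjusted p = 1.80e-07 and 1.11e-08). Runx3, a factor of CD8 lineage choice, was higher by 1.11 ± 0.22 and 0.91 ± 0.22 (adjusted p = 0.00164 and 0.00486). Ets1 was lower by -0.43 ± 0.07 and -0.58 ± 0.07 (adjusted p = 0.000224 and 7.44e-06).

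Among 36 other T cell surface receptors, 9 were higher and 3 lower with high CD5 in CD4 cells, and 5 were higher and 2 lower in CD8 cells, with medians of 0.13 and 0.07. Over all genes, 2.68% were called higher and 1.4% lower in CD4 cells, and 5.95% and 3.51% in CD8 cells. In the test of the difference between lineages where 0.31% of all genes were called, 1 of the 36 was called, Tnfrsf4 (OX40), at -1.10 ± 0.22 (edgeR adjusted p = 0.0454). That call was lost without any 1 of 14 of the 16 libraries, all but CD8 CD5hi replicates 1 and 4 (highest adjusted p = 0.108). The costimulatory receptor Tnfrsf9 (4-1BB) went from 2.79 to 19.4 CPM in CD4 cells (2.79 ± 0.14, adjusted p = 3.90e-09) and from 3.45 to 13.6 CPM in CD8 cells (1.98 ± 0.14, adjusted p = 5.27e-07). Pdcd1, the inhibitory receptor PD-1, rose by 1.98 ± 0.22 and 1.77 ± 0.22 (adjusted p = 3.53e-05 and 0.000141), and Cd200 by 1.91 ± 0.18 and 1.63 ± 0.18. Thy1, a glycolipid-anchored surface protein, fell from 1070 to 598 CPM in CD4 cells (-0.84 ± 0.09, adjusted p = 3.33e-05) and from 1471 to 1087 CPM in CD8 cells (-0.44 ± 0.09, adjusted p = 0.00682). The T cell receptor subunit Cd3e changed by 0.06 ± 0.10 and -0.07 ± 0.10 (adjusted p = 0.955 and 0.721). Cd247, another subunit of that receptor on the list, was called lower in both lineages. It changed by -0.27 ± 0.07 and -0.28 ± 0.07 (edgeR adjusted p = 0.0260 and 0.0114). The CD4 call was lost without any 1 of 5 libraries (highest adjusted p = 0.0978) and the CD8 call without any 1 of 3 (highest 0.0594). In CD4 cells the count of receptors called higher was 4 to 7 without any 1 library, with 4 without CD4 CD5lo replicate 4 or CD4 CD5hi replicate 4. In CD8 cells 1 was lower without CD8 CD5lo replicate 1 or 4 or CD8 CD5hi replicate 3, and 3 were lower without CD8 CD5hi replicate 4. With a replicate block 13 were higher in CD8 cells, and with the 3 marker-rich libraries left out 6 were higher and 2 lower in CD4 cells.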

How the data were processed

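The values were the authors' deposited counts, whole numbers per gene in 1 table with a column for each of the 16 samples, with no sign of scaling in the values (0 columns were left unmatched). Per the labels' protocols, RNA was extracted with TRIzol and RNeasy columns, and libraries were made with a TruSeq RNA version 2 or TruSeq stranded mRNA kit; the kit of each sample and the strand setting were not given in the sources used. The assembly was mm10 and the tools named were DESeq2, featureCounts 1.4.6-p3 and STAR 2.5.2a, per the submitters' processing notes. The design text names technical replicates, which were not analysed here because each sample has 1 column. Between 73.9% and 80.5% of counts of 1 to 9 were even, while for counts from 1000 up the share was 49.2% to 51.3%, so analyses with all counts halved were included.

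Tests used edgeR 4.0.16 in R 4.3.3: TMM scaling, filterByExpr (minimum count 10, total 15), 1 term per group over all 16 libraries (12 residual degrees of freedom), the quasi-likelihood F test and Benjamini-Hochberg adjustment over 13554 genes, with an adjusted p under 0.05 as the threshold. SE is the log2 change divided by the root of F. Log2 CPM for likeness had a prior count of 2. The scripts were tested on simulated data. Alternatives were no filter, no TMM, DESeq2 1.42.0, limma voom 3.58.1, halved counts, the compared groups alone, a replicate block and each library left out; leaving out the 3 libraries with many B cell marker counts was added after seeing the data.

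Same-numbered libraries of different groups deviated together (correlations 0.370 to 0.839 in 16 pairs, each sample closest to its own number), so the replicate numbers in the sample titles pair the samples. The main tests, and the shares of called genes given with them, did not use this pairing. The replicate block did, and it called more genes in every comparison. Some genes that did not pass the main tests therefore pass with the block.

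The members and gene lists were chosen with earlier results of these data known. Named genes were the pair, its 4 tested neighbours on each side, the 6 genes most like each member (predicted genes and clone names left out), called members of the lists and a set always named. The values of 1 called list gene are not reported here.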

Additional observations from a re-analysis of the deposited data

Results flagged for a closer look

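The effect of high CD5 differed between CD8 and CD4 cells by a test of that difference (edgeR quasi-likelihood, 16 libraries) for 5 named genes, each with a smaller rise in CD8 cells. Over all tested genes 0.31% were called. Checked were the pair, A430093F15Rik, the like genes and the lists of SRCR genes, ligands, partners, promoter factors and surface receptors. Of the 7 gate genes, left out of this check, 1 was called with a positive difference. On the log2 scale, CD8 minus CD4, the difference was -1.13 for Cd5, -0.87 for Cd6 and -1.53 for A430093F15Rik. It was -1.42 for Izumo1r and -1.10 for Tnfrsf4. The calls of Cd5, Cd6, A430093F15Rik and Izumo1r held without any 1 of the 16 libraries. The call of Tnfrsf4 was lost without any 1 of 14 of them, all but CD8 CD5hi replicates 1 and 4, with adjusted p up to 0.108. In 16 sets of 4 libraries checked for the pair, A430093F15Rik and the ratio, 0 had a library far from the others.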

How the results depend on the processing

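Under every alternative run (16 for each comparison and 23 for the difference between lineages), Cd5 and Cd6 kept their direction and their side of the threshold, and no result reversed. Counts of called genes moved more. With DESeq2, 307 genes were lower in the CD4 comparison, and 129 were higher and 89 lower for the difference between lineages. With the replicate block, 771 genes were higher and 541 lower with CD5 in CD4 cells and 1813 and 1577 in CD8 cells. The block gave 205 higher and 174 lower for the difference between lineages, 2132 and 2213 between lineages at low CD5, 3177 and 3159 at high CD5, and 3399 lower in CD8 CD5hi against CD4 CD5lo. The block changed no call of Cd5 or Cd6. With the compared groups alone, 248 genes were lower in the CD8 comparison. Without any 1 library, the count for the difference between lineages ran from 1 to 107 higher and from 7 to 58 lower, the lowest without CD8 CD5lo replicate 2 and the highest without CD8 CD5hi replicate 4. The count lower in CD4 cells ran from 123 to 159, and in CD8 cells counts ran from 512 to 950 higher and from 228 to 697 lower. With the 3 libraries of highest B cell marker level left out, 85 were higher and 44 lower for the difference between lineages. The cause of these shifts was not tested.

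The log2 ratio of Cd6 to Cd5 between CD5hi and CD5lo in CD8 cells ran from -0.22 to -0.16 without any 1 library. With any 1 CD8 CD5lo library left out its exact permutation p was 0.0571, so the call in CD8 cells was lost. It was not lost with a CD8 CD5hi library left out, where the group sizes were the same. With the 3 marker-rich libraries left out it was -0.16, and the ratio between lineages at low CD5 was 0.31, both at an exact permutation p of 0.1, the smallest possible. Paired by the replicate block (sign flips), the 4 differences were -0.44, -0.18, 0.28 and 0.54, each at an exact p of 0.125, the smallest possible. The smallest possible p-values show nothing about stability. The 6 genes most like each member were the same 6 of 6 without TMM.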

Other observations

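A430093F15Rik was left out of the ranking of like genes by the rule on clone names. Its centred profile over the 16 libraries differed from that of Cd5 by 0.822 and from that of Cd6 by 0.917 (root mean square, log2), a measure of distance that carries no direction. Leaving out any 1 library gave a rise of 4.06 to 4.15 in CD4 cells and of 2.47 to 2.65 in CD8 cells.

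Of the 8 neighbours of the pair, 2 differed between lineages at high CD5, where 30.3% of all genes were called. Among CD5hi cells, Vwce was lower in CD8 than in CD4 cells by -1.60 on the log2 scale (edgeR adjusted p = 0.0395), and Vps37c, a subunit of the ESCRT sorting machinery, by -0.38 (adjusted p = 0.0134). The call of Vps37c did not hold with CD4 CD5hi replicate 4 left out (adjusted p = 0.0585), and that of Vwce without CD4 CD5hi replicate 1 or 4 or CD8 CD5hi replicate 1, 2 or 3 (highest adjusted p = 0.137).

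Cd7, an early T cell surface receptor, was lower with high CD5 in CD4 cells (54.3 to 33.5 CPM, -0.69 ± 0.14, edgeR adjusted p = 0.00633) and was at 155.6 and 181.6 CPM in CD8 CD5lo and CD8 CD5hi cells (0.22 ± 0.14, adjusted p = 0.360). The difference between lineages, 0.92 ± 0.19, did not pass the threshold (adjusted p = 0.0549).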
